A study of Mus musculus with 12 samples.

Results

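The intercalated disc and gap junction genes described here are 10 genes of the end-to-end contacts between cardiomyocytes: Gja1 and Gjc1 (connexins), Dsp, Pkp2, Jup, Dsg2 and Dsc2 (desmosome), Cdh2 and Ctnna3 (adherens junction) and Tjp1 (scaffold). They were chosen by name for their role and not by their values, though with earlier results of these data known. Each symbol matched 1 Ensembl identifier among the 38293 genes of both deposited tables. RNA sequencing had been performed on 12 mouse hearts in 4 groups of 3 animals each. One table holds WT sham hearts (C57Bl/6J mice, spelled C75Bl/6J in their titles, after sham surgery, with no time point in their labels) and WT IR hearts of the same strain, taken 14 days after ischaemia-reperfusion (IR), in which a ligature around the left anterior descending artery is tied for a while and then released. The other table holds Zeb2 WT IR and Zeb2 cTg IR hearts, also C57Bl/6J and of day 14. The genome of Zeb2 cTg mice holds Zeb2 behind a stop cassette in the Rosa26 locus together with a Cre recombinase driven by the Myh6 promoter, which restricts the transgene to cardiomyocytes. Zeb2 WT mice are their wild-type littermates. The methods give an age of 8 to 9 weeks, with both sexes in their general section and males in that on the transgenic lines. They name the remote zone as the tissue, whereas the sample records name the left ventricle and the design text the infarct area with its border.

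The intercalated disc is the seam at which neighbouring cardiomyocytes are joined. Its adherens junctions anchor the myofibrils, its desmosomes anchor the desmin filaments, and its gap junctions are clusters of connexin channels through which the action potential passes from cell to cell. Loss or displacement of connexin 43 from the disc is a known feature of injured ventricle, and mutations in desmosomal genes are a known cause of arrhythmogenic cardiomyopathy.

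In the WT hearts, Jup fell after IR and was the only one of the 10 genes that passed the test, where 20.8% of all genes tested did. Its call was lost in 4 of 12 other settings and in 3 of 6 fits without a library. Gjc1 had the highest positive log2 fold change without passing the test, and the ratio of Gja1 to Gjc1 within a library was lower in each WT IR heart than in any WT sham heart. For that ratio the exact permutation test gave p = 0.1, the smallest it can give with 3 against 3 (0.4 after adjustment over 8 tests). In the libraries labelled Zeb2 cTg IR none of the 10 genes passed the test against Zeb2 WT IR, where 3.64% of all genes tested did. The values farthest from 0 there were those of Dsc2 and Jup on the positive side and of Tjp1 and Gja1 on the negative side. Values below are counts scaled to 1e+06 per library (CPM) after TMM normalization (a scaling of the libraries to a common majority of genes) within each table, log2 fold changes come with their standard error (SE), and adjusted p-values are from edgeR's quasi-likelihood test over all genes of a table, with a threshold of 0.05.

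Zeb2, the gene carried by the transgene, was looked at before the 10 genes. It stood at 49.0, 49.9 and 55.8 CPM in WT sham and at 59.1, 80.8 and 74.6 CPM in WT IR, which did not overlap (log2 fold change 0.47, SE 0.12, adjusted p = 0.0219; without WT IR replicate 2, WT sham replicate 1 or WT sham replicate 2 the adjusted p was 0.0950, 0.0851 and 0.112, and with the GC correction given below 0.0680). It stood at 54.7, 57.7 and 67.0 CPM in Zeb2 WT IR and at 55.5, 56.8 and 58.7 CPM in the libraries labelled Zeb2 cTg IR, which overlapped (log2 fold change -0.07, adjusted p = 0.750). In these counts Zeb2 was not higher under the transgenic label. Whether reads of the transgene were counted on Zeb2 is not given in the sources used here, so that these counts do not check the label, and other assays of Zeb2 in these mice were not analysed here. Total counts per library lay between 20215781 and 36816818, of which 60.6% to 73.5% fell on the mitochondrial genome, so that 1 CPM stands for 17.2 to 37.8 counts. Gjc1, the shallowest of the 10 genes, had 177 to 478 counts per library, and Dsp, the deepest, had 13762 to 26624.

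Markers of some of the cells of the heart moved with the groups. The summed level of 10 cardiomyocyte markers was 57631 to 63632 CPM in WT sham and 44756 to 57669 CPM in WT IR. There 2 of them fell (Tnni3 and Ryr2), beside 9.74% of all genes tested. In WT IR 7 of 8 fibroblast markers and 6 of 6 macrophage markers rose, beside 11.0% of all genes tested. In the other table the summed cardiomyocyte markers were 57773 to 63125 CPM in Zeb2 WT IR and 64080 to 67776 CPM under the transgenic label (Tnnt2 rose, the other 9 did not pass), and 3 of 8 fibroblast markers fell. The summed fibroblast markers went from 495 to 894 CPM in WT sham to 1813 to 4533 CPM in WT IR, and from 874 to 1969 CPM in Zeb2 WT IR to 509 to 623 CPM under the transgenic label. None of the 6 endothelial markers passed in either comparison, and none of the 6 macrophage markers passed under the transgenic label. Of 6 mural cell markers 2 rose and 1 fell in WT IR and 1 rose under the transgenic label. Of 5 mesothelial markers, summed at no more than 7.94 CPM in any library, 4 and 2 were tested and 1 fell in WT IR. None of the 6 lists had a member at 0 in all libraries. Fewer cells of a type and less RNA per cell cannot be told apart in these tissue samples, and the part of cell composition in the values below was not tested beyond the scaling by cardiomyocyte markers given with them.

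**Figure D1:**
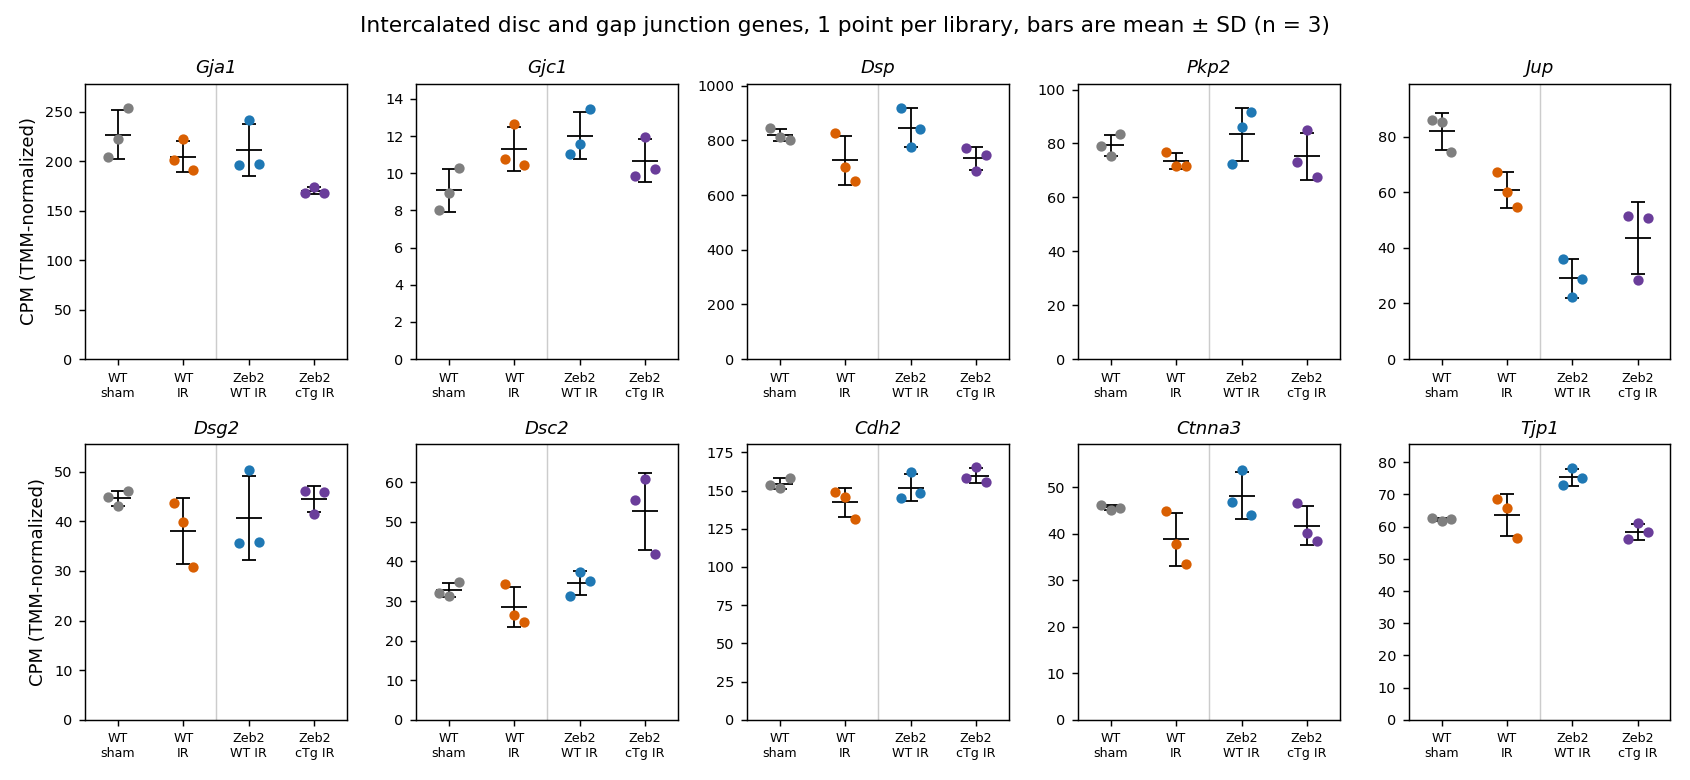
CPM (y axis, from 0, 1 scale per gene) of each of the 10 genes in the 12 libraries, with 1 point per library and bars for the mean ± SD of the 3 libraries of a group; the grey line parts the tables, which were normalized separately. Jup is lower in each WT IR library than in any WT sham library, and Dsc2 is higher in each library labelled Zeb2 cTg IR than in any Zeb2 WT IR library.

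Compared per length, as CPM per 1000 exonic bases, desmoplakin led in every group, with 84.9 ± 2.37 (SD, n = 3) in WT sham. It was followed there by Gja1 at 22.1 ± 2.42, Cdh2 at 19.2 ± 0.428, Pkp2 at 14.8 ± 0.739, Jup at 12.7 ± 1.02 and Tjp1 at 7.96 ± 0.0529. The libraries of Ctnna3 at 6.31 ± 0.0758 and Dsc2 at 6.21 ± 0.352 overlapped, while all other neighbours in this order did not. Dsg2 stood at 5.39 ± 0.184, and Gjc1 closed the order at 1.81 ± 0.230. The order from Dsp through Gja1, Cdh2, Pkp2 and Jup to Tjp1 was kept in WT IR, where Jup and Tjp1 overlapped, as did Dsc2 with Ctnna3 and Ctnna3 with Dsg2. In Zeb2 WT IR, Jup stood near the end of the order at 4.52 ± 1.09 and overlapped with Dsg2, and under the transgenic label it stood at 6.77 ± 2.03 and overlapped with Tjp1 and Ctnna3. Cdh2 at 19.8 ± 0.601 was above Gja1 at 16.6 ± 0.338 without overlap under that label, whereas in the other groups Gja1 had the higher mean, overlapping with Cdh2 in Zeb2 WT IR. Gjc1 was last in all 4 groups.

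CACCT, or AGGTG on the other strand, is a sequence that ZEB factors are known to bind, and the promoters that could be read were searched for it because the second comparison is about a Zeb2 label. RefSeq promoter windows (250 bases before to 50 after a start, GRCm38.p6) were found for 5 of the 10 genes. In Gja1, Dsp, Jup and Ctnna3 they hold the 6 matches below, shown in stretches of 29 bases in the gene's direction with the match in capitals, and the window of Tjp1 holds none.
Gja1, chr10:56377212-56377240, plus strand: cagcctccactcCACCTcctccccgcctt
Dsp, chr13:38151063-38151091, plus strand: gaaatcctccaaAGGTGtgccactgtggc
Dsp, chr13:38151260-38151288, plus strand: gcgaggcagccgCACCTcgccctgggaag
Dsp, chr13:38151286-38151314, plus strand: aagaagccgaccAGGTGtggcctgggcgc
Jup, chr11:100397793-100397821, minus strand: cgagggggcgagAGGTGtggcttggctgt
Ctnna3, chr10:63820897-63820925, plus strand, in 1 of its 3 windows: cataaaggggtgAGGTGtcctcaaagagc
A match on either strand is found in 51.9% of all 32851 windows of this length. That share is per window, and Ctnna3 has 3 windows of which 1 matches. Presence in 4 of 5 genes can therefore not be set against it, and is a description and not a site of binding. The longer CACCTG (or CAGGTG), which contains CACCT, is found in 20.2% of the windows and once here, in that of Dsp. Values of these genes under the transgenic label are given with each of them.

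Gja1 encodes connexin 43, the main gap junction channel protein of the working ventricle (chr10:56377330-56402513, plus strand, GRCm38). It stood at 205, 223 and 254 CPM in WT sham and at 201, 223 and 191 CPM in WT IR. These groups overlapped, with a log2 fold change of -0.15 (SE 0.11, 95% interval -0.38 to 0.09, adjusted p = 0.341). In the other table it stood at 196, 242 and 197 CPM in Zeb2 WT IR and at 168, 174 and 168 CPM in the libraries labelled Zeb2 cTg IR. All 3 of the latter were below all 3 of the former, by 19.6% in the fitted mean, but the difference did not pass the test (log2 fold change -0.32, SE 0.12, 95% interval -0.60 to -0.04, adjusted p = 0.167). It passed only where the libraries were scaled by their summed cardiomyocyte markers (-0.46, adjusted p = 0.0438), and with GC content corrected for its value was -0.11 (adjusted p = 0.521).

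Gjc1 encodes connexin 45, a low-conductance channel protein of the early heart and of the adult conduction system (chr11:102799579-102819700, minus strand). It stood at 8.01, 8.92 and 10.3 CPM in WT sham and at 10.8, 12.6 and 10.5 CPM in WT IR. Each WT IR heart was above each WT sham heart, with a log2 fold change of 0.33 (SE 0.12, 95% interval 0.06 to 0.59) that missed the threshold (adjusted p = 0.0755). It passed without WT IR replicate 1 (0.37, adjusted p = 0.0348), with no filter on low counts (0.33, adjusted p = 0.0491) and under the scaling by cardiomyocyte markers (0.60, adjusted p = 0.0322). In Zeb2 WT IR it stood at 11.03, 11.6 and 13.5 CPM, and under the transgenic label at 9.84, 11.98 and 10.2 CPM, with overlap (log2 fold change -0.17, SE 0.14, adjusted p = 0.478).

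The ratio of the 2 connexins within a library does not depend on how libraries are scaled against each other. On the log2 scale and per exonic base, Gja1 to Gjc1 was 3.64, 3.61 and 3.59 in WT sham and 3.19, 3.10 and 3.15 in WT IR, or means of 12.2 and 8.86 on the linear scale. The mean difference was -0.46 with an SD of 0.026 in WT sham and 0.043 in WT IR, and the exact permutation test (two-sided) gave p = 0.1, the smallest it can give with 3 against 3 (0.4 after adjustment over the 8 tests of ratios). Leaving out each library in turn kept the difference between -0.48 and -0.44. In the other table the ratio was 3.12, 3.35 and 2.84 in Zeb2 WT IR and 3.06, 2.83 and 3.00 under the transgenic label, which overlapped (difference -0.14, exact permutation p = 0.4). The ratios of 4 pairs of related genes were tested in both comparisons, and with a smallest p of 0.1 none of these 8 tests could pass a threshold of 0.05.

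**Figure D2:**
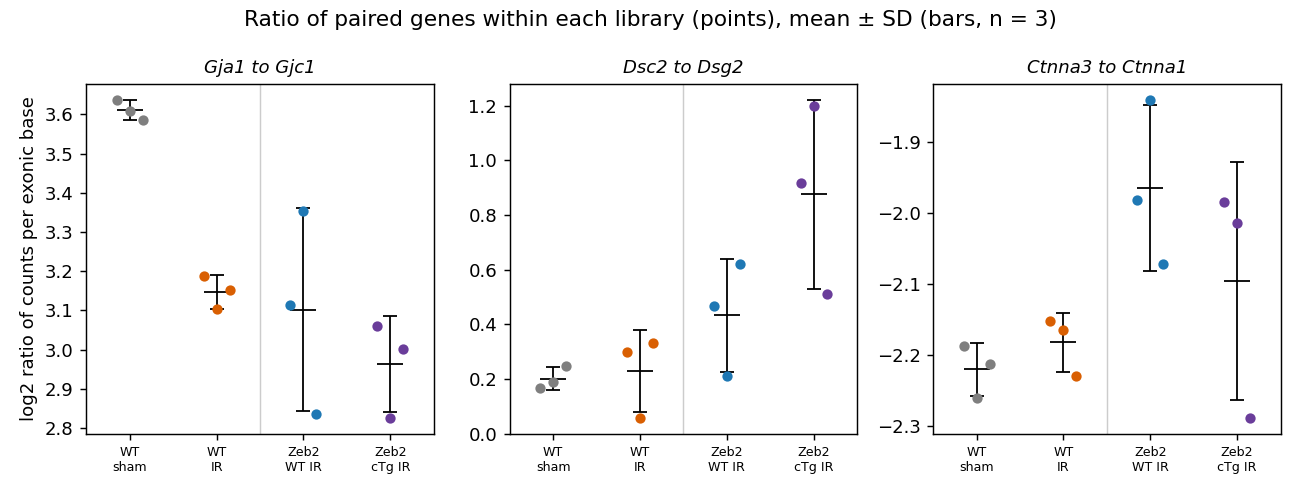
Log2 ratio of counts per exonic base (y axis, not starting at 0) for 3 pairs of related genes in each library (points), with the mean ± SD of 3 libraries (bars). The Gja1 to Gjc1 ratio is 3.59 to 3.64 in WT sham and 3.10 to 3.19 in WT IR, and the Dsc2 to Dsg2 ratio is 0.21 to 0.62 in Zeb2 WT IR and 0.51 to 1.20 under the transgenic label.

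Among the desmosomal genes, Jup encodes plakoglobin, an armadillo protein that sits in desmosomes and in adherens junctions alike (chr11:100368958-100397763, minus strand). It stood at 86.2, 85.3 and 74.4 CPM in WT sham and at 67.5, 60.3 and 54.7 CPM in WT IR, with no overlap. Jup fell by 0.43 on the log2 scale (SE 0.098, 95% interval -0.65 to -0.21, adjusted p = 0.0168), from 82.0 ± 6.56 to 60.8 ± 6.39 CPM (SD, n = 3 each). The call held with DESeq2 (-0.44, adjusted p = 0.00257) and was lost with the GC correction (-0.29, adjusted p = 0.0616), the scaling by cardiomyocyte markers (-0.16, adjusted p = 0.218), the spread shared over all 12 libraries (-0.43, adjusted p = 0.193) and without WT IR replicate 2 (adjusted p = 0.0741), WT sham replicate 1 (0.0672) or WT sham replicate 2 (0.0922). In the other table it stood at 36.2, 22.2 and 28.9 CPM in Zeb2 WT IR and at 51.5, 28.5 and 50.8 CPM under the transgenic label, where replicate 2 lay within the range of the Zeb2 WT IR hearts. The log2 fold change was 0.58 (SE 0.24, adjusted p = 0.185), 0.81 without Zeb2 cTg IR replicate 2 (adjusted p = 0.0177), 0.59 with no filter on low counts (adjusted p = 0.0432) and 0.13 with the GC correction (adjusted p = 0.445). WT IR and Zeb2 WT IR share strain, injury and day, yet Jup stood at 54.7 to 67.5 CPM in the one and 22.2 to 36.2 CPM in the other; the tables were normalized separately and this difference was not tested.

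Dsc2 and Dsg2 encode desmocollin 2 and desmoglein 2, the desmosomal cadherins of the heart muscle (chr18:20030633-20059554, minus strand, and chr18:20558074-20604521, plus strand). Dsc2 stood at 32.1, 31.3 and 34.8 CPM in WT sham and at 34.3, 26.5 and 24.7 CPM in WT IR, which overlapped (log2 fold change -0.20, SE 0.12, adjusted p = 0.261). In Zeb2 WT IR it stood at 31.4, 37.3 and 35.2 CPM, and in the libraries labelled Zeb2 cTg IR at 55.5, 60.7 and 41.8 CPM. Each of the latter was above each of the former, with a log2 fold change of 0.61 (SE 0.15, 95% interval 0.26 to 0.95) and an adjusted p of 0.0621. It passed in 6 of 12 other settings, among them DESeq2 (0.60, adjusted p = 0.0160), the GC correction (0.80, adjusted p = 0.00441), no filter on low counts (0.62, adjusted p = 0.0105) and the fit of all 12 libraries (0.62, adjusted p = 0.0163). It did not pass with limma-voom (adjusted p = 0.0758) or in any of the 6 fits without a library (adjusted p = 0.0528 to 0.210). Dsg2 stood at 44.8, 43.0 and 46.0 CPM in WT sham, at 43.7, 39.8 and 30.7 CPM in WT IR, at 35.6, 50.4 and 35.8 CPM in Zeb2 WT IR and at 46.1, 41.4 and 46.0 CPM under the transgenic label. Both pairs of groups overlapped (log2 fold changes -0.22 and 0.13, adjusted p = 0.202 and 0.620). An antisense gene, Gm16090, overlaps Dsg2; the libraries are strand-specific but whether the counting used strand is not given in the sources used here, and without it reads of the 2 genes cannot be told apart. The log2 ratio of Dsc2 to Dsg2 per exonic base was 0.47, 0.21 and 0.62 in Zeb2 WT IR and 0.92, 1.20 and 0.51 under the transgenic label (difference 0.44, exact permutation p = 0.2), and its difference between WT sham and WT IR was 0.03 (exact permutation p = 0.9).

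Dsp encodes desmoplakin, which ties the desmosomal plaque to desmin (chr13:38151294-38198577, plus strand), and Pkp2 encodes plakophilin 2, an armadillo protein of the plaque (chr16:16213318-16272712, plus strand). Dsp stood at 845, 814 and 800 CPM in WT sham and at 827, 704 and 652 CPM in WT IR, which overlapped (log2 fold change -0.17, SE 0.12, adjusted p = 0.313). It stood at 919, 778 and 842 CPM in Zeb2 WT IR and at 771, 687 and 745 CPM under the transgenic label, all lower than the lowest Zeb2 WT IR heart but by a margin the test did not call (-0.20, SE 0.12, adjusted p = 0.337). Dsp holds 3 of the 6 promoter matches printed above. Pkp2 kept within 71.6 to 83.4 CPM in the 6 WT hearts and within 67.7 to 91.7 CPM in the other 6, with log2 fold changes of -0.11 and -0.15 (adjusted p = 0.327 and 0.530). The 95% intervals of Pkp2 were -0.28 to 0.06 in the WT hearts and -0.46 to 0.16 for the transgenic label.

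Cdh2 encodes N-cadherin, the transmembrane cadherin of the disc (chr18:16588877-16809246, minus strand), and Ctnna3 encodes alpha-T-catenin, a linker of cadherins to actin found mainly in heart and testis (chr10:63430098-65003667, plus strand). Cdh2 stood at 154, 152 and 159 CPM in WT sham and at 149, 146 and 131 CPM in WT IR, which did not overlap but differed by little (log2 fold change -0.12, SE 0.08, adjusted p = 0.320). Its level was 145, 162 and 149 CPM in Zeb2 WT IR and 158, 165 and 156 CPM under the transgenic label, with overlap (0.07, adjusted p = 0.709). Ctnna3 stood at 46.2, 45.2 and 45.5 CPM in WT sham and at 44.9, 37.8 and 33.5 CPM in WT IR. The groups did not overlap, although WT IR replicate 1 lay just under the lowest WT sham heart, and the log2 fold change was -0.23 (SE 0.10, 95% interval -0.47 to -0.004, adjusted p = 0.132). In Zeb2 WT IR Ctnna3 stood at 46.7, 53.8 and 44.0 CPM and under the transgenic label at 46.5, 40.2 and 38.5 CPM (log2 fold change -0.21, adjusted p = 0.346). Against its relative Ctnna1 within a library, Ctnna3 differed by 0.04 (WT IR minus WT sham) and -0.13 (Zeb2 cTg IR minus Zeb2 WT IR) on the log2 scale, with exact permutation p = 0.3 and 0.4.

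Tjp1 encodes ZO-1, a scaffold that binds connexin 43 at the rim of gap junction plaques (chr7:65296165-65527781, minus strand). It stood at 62.5, 61.7 and 62.2 CPM in WT sham and at 68.7, 65.8 and 56.3 CPM in WT IR, where the replicates fell on both sides of the sham hearts (log2 fold change 0.03, SE 0.09, 95% interval -0.16 to 0.23, adjusted p = 0.813). In Zeb2 WT IR it stood at 72.8, 78.1 and 74.99 CPM, and in the libraries labelled Zeb2 cTg IR at 56.0, 61.0 and 58.3 CPM. The groups did not overlap, with a log2 fold change of -0.37 (SE 0.11, 95% interval -0.61 to -0.12) and an adjusted p of 0.0881. It passed without Zeb2 cTg IR replicate 2 (-0.40, adjusted p = 0.0387), under the scaling by cardiomyocyte markers (-0.52, adjusted p = 0.0291) and in the fit of all 12 libraries (-0.35, adjusted p = 0.0260), and missed the threshold with the GC correction (-0.25, adjusted p = 0.0732).

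**Figure D3:**
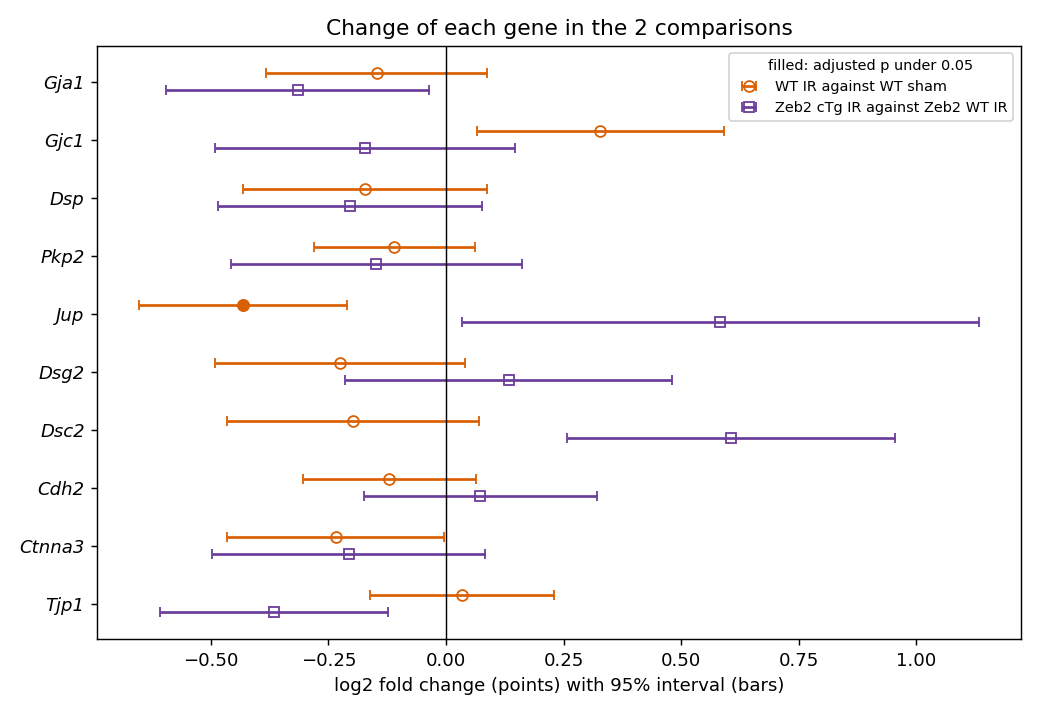
Log2 fold change (x axis) of each gene with its 95% interval, for WT IR against WT sham (circles) and for the libraries labelled Zeb2 cTg IR against Zeb2 WT IR (squares); filled symbols have an adjusted p under 0.05. Jup in the WT comparison, at -0.43, is the only filled symbol.

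Counted together, 1 of the 10 genes passed in WT IR against WT sham, where 20.8% of the 13756 genes tested did (11.0% higher and 9.74% lower), and the median log2 fold change of the 10 was -0.16 against 0.01 for all genes tested. Of the 10, 3 had an unadjusted p under 0.05 (Gjc1, Jup and Ctnna3), as had 4973 of the 13756 genes tested. Groups did not overlap for 4 (Gjc1 higher, Jup, Cdh2 and Ctnna3 lower), which held for 39.8% of all genes (20.5% higher and 19.3% lower). The share called is below and the share without overlap near that of all genes. Of the 10 log2 fold changes 8 were below 0 with TMM, and 1 was (Jup) under the scaling by cardiomyocyte markers, which shifted the median over all genes to 0.28 and that over the 10 genes to 0.11. Relative to all genes the median of the 10 was thus lower under both scalings. The count called was 6 without WT IR replicate 1 (Gjc1 higher; Dsp, Jup, Dsg2, Dsc2 and Ctnna3 lower), where 36.0% of all genes were called, and 0 without WT IR replicate 2, WT sham replicate 1 or WT sham replicate 2, where 6.72%, 8.97% and 3.05% were.

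For the libraries labelled Zeb2 cTg IR against Zeb2 WT IR, 0 of the 10 genes passed with edgeR's quasi-likelihood test, where 3.64% of the 13018 genes tested did (2.14% higher and 1.51% lower). An unadjusted p under 0.05 was found for 4 of them (Gja1, Jup, Dsc2 and Tjp1) and for 3134 of the 13018 genes tested. DESeq2 called 1 (Dsc2), where 7.59% of all genes were called, and limma-voom called 0, where 3.03% were. Groups did not overlap for 4 (Dsc2 higher; Gja1, Dsp and Tjp1 lower), against 26.2% of all genes (13.4% higher and 12.8% lower). The median log2 fold change was -0.16 against 0.01 for all genes, with 6 of 10 below 0, or 8 of 10 under the scaling by cardiomyocyte markers, which shifted the median over all genes to -0.15. Without Zeb2 cTg IR replicate 2 the count called was 2 (Jup higher and Tjp1 lower), where 18.2% of all genes were called.

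**Figure D4:**
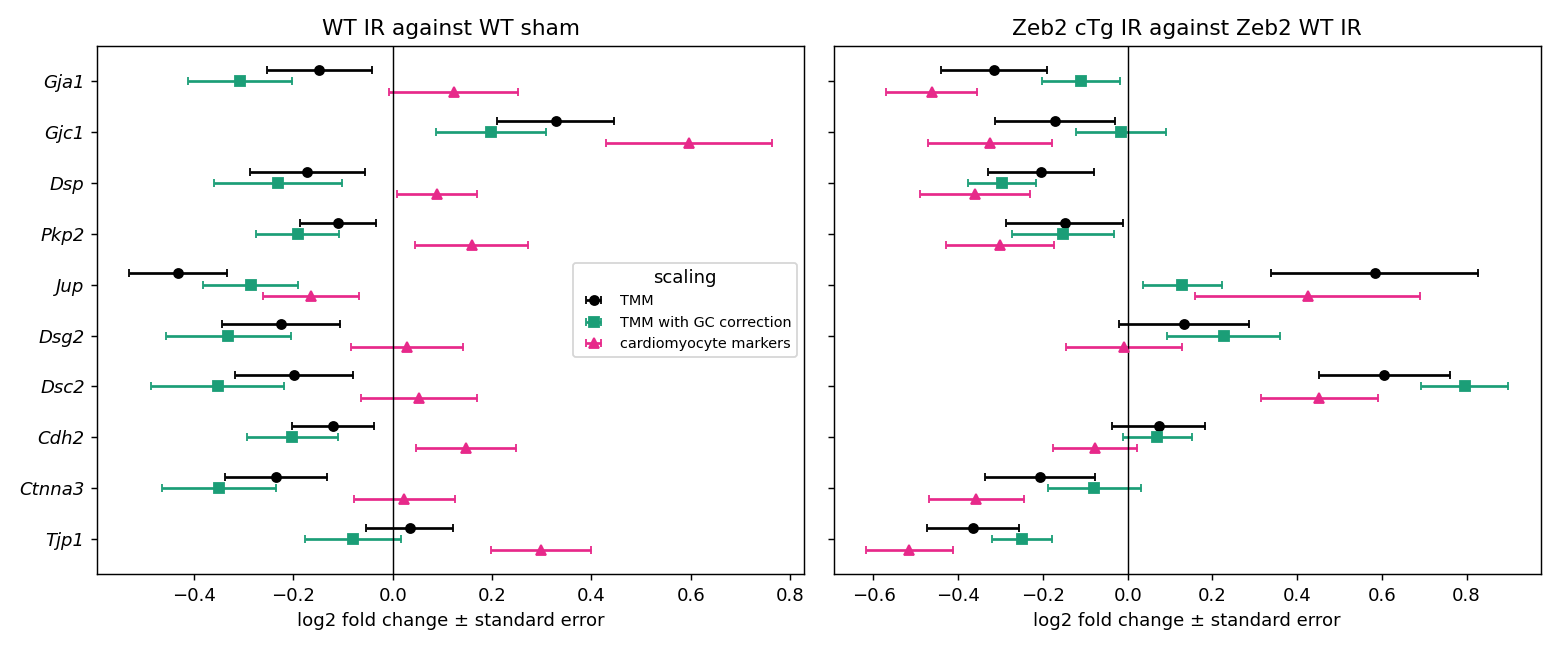
Log2 fold change ± SE (x axis) of each gene under 3 scalings, TMM (circles), TMM with a correction for GC content (squares) and factors from the summed cardiomyocyte markers (triangles), for WT IR against WT sham (left) and the libraries labelled Zeb2 cTg IR against Zeb2 WT IR (right). On the left, 8 circles and 1 triangle lie below 0; on the right, Dsc2 lies between 0.45 and 0.80 under all 3 scalings and Jup between 0.13 and 0.58.

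GC content moved with the fold changes of both comparisons. Across genes, Spearman's rho of log2 fold change and GC content of the transcript was -0.29 in the WT hearts and 0.55 in the other table, a description across genes that share their libraries. The 10 genes run from 42.2% GC (Gja1) and 42.5% (Dsc2) to 58.8% (Jup), against a median of 49.4% over the genes tested in the WT table. With the correction the log2 fold change of Jup went from -0.43 to -0.29 and from 0.58 to 0.13 and that of Gja1 from -0.15 to -0.31 and from -0.32 to -0.11, and it enlarged the value of Dsc2 under the transgenic label from 0.61 to 0.80.

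Whether a gene moved differently in the 2 comparisons, which have no library in common, was tested as the difference of their log2 fold changes (transgenic label minus injury) in 1 fit of all 12 libraries. Of the 10 genes 3 passed, a share near the 23.0% of 14151 genes that did. The difference was 0.82 for Dsc2 (SE 0.21, 95% interval 0.37 to 1.27, adjusted p = 0.0144), 1.03 for Jup (SE 0.29, adjusted p = 0.0228) and -0.38 for Tjp1 (SE 0.13, adjusted p = 0.0486). For Dsc2 the call held in all 12 fits that left out a library (0.71 to 0.98) and with the GC correction (1.15, adjusted p = 0.00138). For Jup it held in 6 of the 12, was lost without WT IR replicate 2 or 3, WT sham replicate 1, Zeb2 cTg IR replicate 1 or 3 or Zeb2 WT IR replicate 3 (adjusted p = 0.0503 to 0.0593), and stood at 0.43 with the GC correction (adjusted p = 0.0362). For Tjp1 it held in 2 of the 12, without WT IR replicate 3 and without Zeb2 cTg IR replicate 2, and was lost with the GC correction (-0.16, adjusted p = 0.361). Gjc1 had a difference of -0.48 (adjusted p = 0.0763), and those of Gja1, Dsp, Pkp2, Dsg2, Cdh2 and Ctnna3 lay between -0.15 and 0.37 (adjusted p = 0.204 to 0.953).

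The other genes of these junctions were taken from a list of 39, of which 32 had enough counts to be tested in each table. In WT IR against WT sham 4 rose and 5 fell, or 28.1% of the 32 beside 20.8% of all genes tested, with a median of -0.17 over the 32. Those that rose were Panx1, the channel protein pannexin 1 (1.75, SE 0.33, adjusted p = 0.00905), Gja4, the endothelial connexin 37 (0.67, adjusted p = 0.0407), Tmem43, a membrane protein tied to arrhythmogenic cardiomyopathy (0.51, adjusted p = 0.0209), and Xirp2, an actin-binding protein of the disc (0.62, adjusted p = 0.0149). Panx1 was read from few counts, at 0.832, 0.582 and 0.640 CPM in WT sham and 1.66, 1.93 and 3.47 CPM in WT IR. Among those that fell were Nectin2, an adherens junction adhesion protein (-0.51, adjusted p = 0.0431), Xirp1, the paralogue of Xirp2 (-0.43, adjusted p = 0.0160), Bves, a cAMP-binding Popeye protein (-0.39, adjusted p = 0.0129), and Ank3, the membrane anchor ankyrin-G (-0.31, adjusted p = 0.0492). Under the scaling by cardiomyocyte markers the split was 9 higher and 0 lower, with the 5 fallen genes between -0.26 and -0.05. Of all 13756 genes tested, 2630 were called higher and 234 lower under that scaling. The count of 9 became 21 without WT IR replicate 1 (36.0% of all genes called), 1 without WT IR replicate 2 (6.72%) or WT sham replicate 1 (8.97%), 0 without WT sham replicate 2 (3.05%), and 5 without WT IR replicate 3 (13.1%) or WT sham replicate 3 (9.98%).

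In the libraries labelled Zeb2 cTg IR 4 of the 32 rose and 2 fell against Zeb2 WT IR, or 18.8% beside 3.64% of all genes tested, with a median of 0.12. Among those that rose were Flnc, the actin crosslinker filamin C (0.97, SE 0.22, adjusted p = 0.0438), Popdc2, another Popeye protein (0.60, SE 0.11, adjusted p = 0.0269), and Tln2, the integrin adaptor talin 2 (0.54, SE 0.11, adjusted p = 0.0347). Xirp2 fell by 0.96 (SE 0.19, adjusted p = 0.0283), with 889, 952 and 1061 CPM in Zeb2 WT IR and 458, 645 and 391 CPM under the label. Cxadr, the coxsackievirus and adenovirus receptor, an adhesion protein of the disc, fell by 0.66 (SE 0.14, adjusted p = 0.0333), from 33.4 ± 3.10 to 21.2 ± 2.51 CPM (SD, n = 3 each). Under the scaling by cardiomyocyte markers the split was 0 higher and 5 lower. Of all 13018 genes tested, 160 were called higher and 577 lower under that scaling. The count of 6 was 12 without Zeb2 cTg IR replicate 2 (18.2% of all genes called) and 0 without Zeb2 cTg IR replicate 1 (1.12%) or 3 (0.889%) or Zeb2 WT IR replicate 2 (1.84%) or 3 (0.737%). All 6 genes belong to the 15 scaffold and disc-associated genes of the list. Of the 4 other connexins and pannexins, 5 desmosome and filament genes and 8 adherens junction genes tested, 0 passed in this comparison. An unadjusted p under 0.05 was found for 1, 2 and 2 of these, beside 3134 of the 13018 genes tested. Among the 7 genes not tested in either table were Gjb2, Gjd3 and the desmosomal genes Dsc3, Dsg1a, Pkp1 and Pkp3; the 7 had at most 13 counts in a library, with Pkp1 at 0 in all 12.

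**Figure D5:**
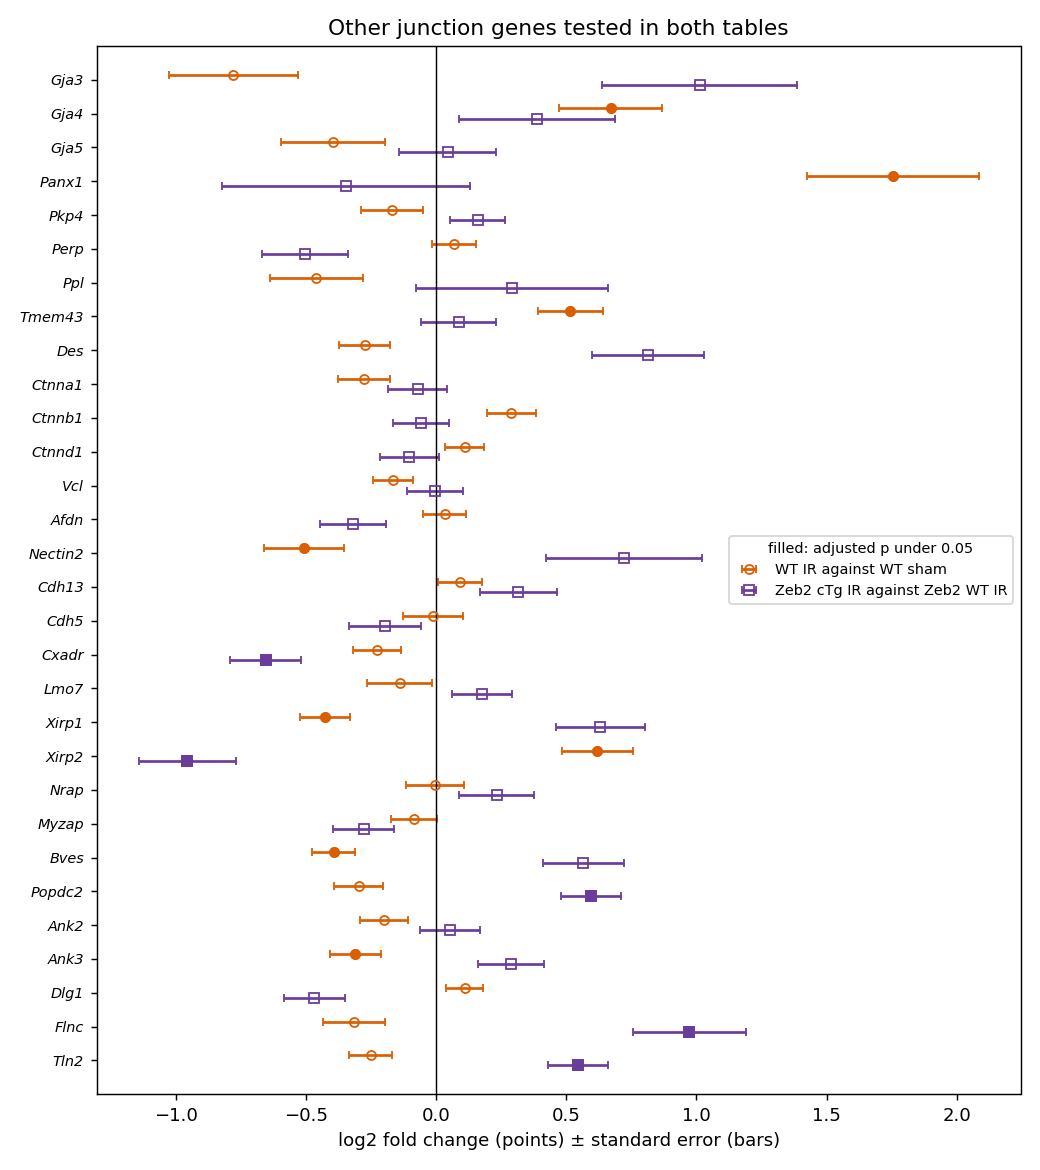
Log2 fold change ± SE (x axis) of 30 of the 32 other junction genes tested in both tables, for WT IR against WT sham (circles) and the libraries labelled Zeb2 cTg IR against Zeb2 WT IR (squares); filled symbols have an adjusted p under 0.05. Xirp2 is filled in both, at 0.62 and -0.96.

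Within groups, the 10 genes varied together in part. Over the 45 pairs, Pearson's r of deviations of log2 CPM from the group means across the 12 libraries ran from -0.72 (Pkp2 and Jup) to 0.88 (Cdh2 and Tjp1), with a median of 0.36 and 33 pairs above 0. Jup had the 5 lowest values, with Pkp2, Gjc1, Gja1, Cdh2 and Dsc2, and an r of 0.76 with Dsp. Among the 5 genes most like Gja1 in these deviations, of 5026 candidates, were Hnrnpa2b1 (0.92), Aqr (0.89), Tab2 (0.88) and Pcmtd2 (0.88), while the nearest of the 10 genes was Cdh2 at rank 131 (0.73). All of these are descriptions over points that share library and depth.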

How the data were processed

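The authors aligned strand-specific single-end reads with STAR (2.4.2a in the submitters' processing notes, which also name HTSeq 0.6.1 and mm10) against GENCODE M4 and deposited counts per gene without normalization, in 2 tables of 6 libraries. The methods name a total RNA kit and the sample records an mRNA kit. Groups and replicate numbers were taken from the labels. No 2 libraries of a group agreed within sampling noise.

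Each table was fitted on its own in R 4.3.3 with edgeR 4.0.16 (TMM; filterByExpr with a minimum count of 10 and a minimum total count of 15; quasi-likelihood test; Benjamini-Hochberg adjustment over all genes tested, threshold 0.05). Intervals of 95% rest on that fit. The authors' DESeq release was not used here; DESeq2 1.42.0 and voom of limma 3.58.1 were alternatives. Positions, exonic lengths and GC content come from GENCODE M21 (GRCm38, the build of M4), which gave a symbol to 36429 of the 38293 identifiers. The GC correction took a loess fit (span 0.5) of each library on GC content as offset. The fits were also run on simulated counts with known changes and no trend with GC content. The outcome is not given here and is not used for the calls above.

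The genes named are the 10 of the title, the other junction genes that passed in a comparison, Zeb2, and the 5 genes most like Gja1 with a mean of at least 10 CPM; the junction genes not tested, 3 markers and Gm16090 are named beyond that rule, and some genes that meet the rule, with 1 of the 4 ratios, are not reported here. The members, lists and tests were chosen with earlier results of these data known. The alternatives were RLE, upper quartile and cardiomyocyte-marker factors, no mitochondrial genes, no filter, a minimum of 10 counts per library, the GC correction, the replicate block, both at once, 1 fit of all 12 libraries, leaving out each library (for ratios chosen after seeing the data) and a pseudocount of 0.5 counts for ratios.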

Additional observations from a re-analysis of the deposited data

How the results depend on the processing

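Of 360 refits of the 10 genes' log2 fold changes, 319 kept direction and side of the threshold, most of them values that did not pass in the main fit. The only call, Jup in the WT hearts, was kept in 8 of 12 other settings and in 3 of 6 fits without a library. With cardiomyocyte-marker factors the WT values turned positive for Gja1 (0.12), Dsp (0.090), Pkp2 (0.16), Dsg2 (0.029), Dsc2 (0.054), Cdh2 (0.15) and Ctnna3 (0.024). Those under the transgenic label turned negative for Dsg2 (-0.0095) and Cdh2 (-0.077). The median over all genes with these factors was 0.28 in the WT hearts and -0.15 under the label. With the GC correction, Tjp1 in the WT hearts was -0.080 (-0.086 with the block), Zeb2 under the transgenic label 0.15 (0.15 with the block), and the difference between comparisons 0.20 for Gja1 and 0.049 for Pkp2. Without each library in turn, Tjp1 in the WT hearts ran from -0.026 to 0.11, Zeb2 under the label from -0.13 to 0.019, and the difference from -0.088 to 0.088 for Dsp, -0.12 to 0.056 for Pkp2 and -0.048 to 0.17 for Ctnna3. The cause was not tested. In the WT hearts 1 gene of the 10 passed, 2 with no filter, 0 with the GC correction, 0 with all 12 libraries in 1 fit and 0 to 6 without a library; of the other junction genes 9 passed, 3 with all 12 libraries and 0 to 21 without one. Under the transgenic label 0 passed, 2 with cardiomyocyte-marker factors, 2 with no filter, 1 with DESeq2, 1 with the GC correction, 2 with all 12 libraries and 0 to 2 without one; of the other junction genes 6 passed, 11 with no filter, 10 with DESeq2, 11 with all 12 libraries and 0 to 12 without one. Of all genes, 20.8% passed in the WT hearts, 15.7% with no filter, 20.2% with the GC correction and 10.1% with all 12 libraries. Without a library this share was 3.05% to 36.0%. Under the transgenic label 3.64% of all genes passed, 5.66% with cardiomyocyte-marker factors, 7.02% with no filter and 7.59% with DESeq2. The share was 6.35% with the GC correction, 13.7% with all 12 libraries and 0.737% to 18.2% without one. The difference between comparisons passed for 3 genes, and for 1 to 4 without a library. There 23.0% and 13.8% to 34.4% of all genes passed. The replicate numbers belong to different animals, and same-numbered libraries deviated together with r from -0.034 to 0.012 in the WT table and -0.042 to 0.260 in the other. With the replicate block, 1 gene of the 10 passed in the WT hearts and 3 under the transgenic label (Jup, Dsc2, Tjp1), and 13 other junction genes under that label; with block and GC correction together 1 passed in each (Ctnna3 in the WT hearts, -0.36, and Dsc2 under the label, 0.79), and the difference passed for 3 with the block. With the block 18.9% of all genes passed in the WT hearts, 13.9% under the label and 27.2% for the difference. With block and GC correction together 18.2% of all genes passed in the WT hearts and 5.40% under the label. Not every library correlated best with its own number. With groups of 3, and 177 counts at the least, Gjc1 has the widest counting error of the 10.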
